A study of Mus musculus with 8 samples.

Results

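The leukocyte integrins described here are 10 genes of cell-surface adhesion receptors: the alpha subunit genes Itga4, Itga5, Itga6, Itgal, Itgam, Itgav and Itgax and the beta subunit genes Itgb1, Itgb2 and Itgb5. They were chosen by name and found by Ensembl identifier among the 52636 genes of the count table, and each symbol matched 1 identifier. RNA was sequenced from primary microglia, the resident macrophages of the brain, prepared from wild-type mice, labelled C57BL/6 (the study's methods list wild-type pups of the substrain C57BL/6N). The cells of both groups were grown in DMEM with 10% fetal bovine serum and 10 ng/ml recombinant CSF-1 and kept for 24 h with vehicle (4 libraries) or with 5 µg/ml bacterial lipopolysaccharide (LPS, 4 libraries), a ligand of the innate immune receptor TLR4. The study's methods take the cells from neonatal mixed glial cultures by shaking them off a layer of astrocytes, and describe plates coated with collagen IV, itself an integrin ligand, or glass coverslips. The surface used for the RNA is not given in the sources used here, and neither is whether the numbered biological replicates came from separate animals, so that p-values measure the spread between these libraries only.

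An integrin is a heterodimer of 1 alpha and 1 beta chain, and the pair sets what it binds. Itgb2 encodes the beta2 chain of leukocytes, which joins the products of Itgal (LFA-1, a receptor for ICAM proteins), Itgam (Mac-1 or complement receptor 3, also called CD11b and a common microglial surface marker) and Itgax (complement receptor 4, also called CD11c). Itgb1 encodes the widely used beta1 chain, which joins the products of Itga4 (a receptor for VCAM-1 and fibronectin), Itga5 (the classical fibronectin receptor), Itga6 (a laminin receptor) and Itgav. The alpha v chain of Itgav also joins the beta5 chain of Itgb5 in a vitronectin receptor. Integrins switch between inactive and active shapes when talin and kindlin bind the tail of the beta chain inside the cell.

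The genes of Itgam and Itgax are neighbours on mouse chromosome 7 and are read in the same direction, Itgam at 128062640 to 128118491 and Itgax at 128129547 to 128150657 on the plus strand of GRCm38, with 11055 bases between them. Their transcripts changed in opposite directions. The 250 bases before the start of each gene are shown because they are the nearest upstream sequence of this pair, with the RefSeq start of GRCm38 as the reference point. Capitals mark GAGGAA, a form of the site bound by the myeloid factor PU.1, or its reverse complement TTCCTC.
Itgam, chr7:128062390-128062639, plus strand: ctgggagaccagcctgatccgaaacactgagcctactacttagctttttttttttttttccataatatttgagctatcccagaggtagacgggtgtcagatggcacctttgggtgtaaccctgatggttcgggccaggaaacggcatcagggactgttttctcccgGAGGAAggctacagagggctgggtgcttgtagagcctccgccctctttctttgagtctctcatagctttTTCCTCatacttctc
Itgax, chr7:128129300-128129549, plus strand: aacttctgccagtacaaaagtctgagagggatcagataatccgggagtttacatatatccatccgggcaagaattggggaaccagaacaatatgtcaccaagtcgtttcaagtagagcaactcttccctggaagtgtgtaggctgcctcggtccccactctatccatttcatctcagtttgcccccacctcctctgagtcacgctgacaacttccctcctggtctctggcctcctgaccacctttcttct

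The Itgam window holds GAGGAA or its reverse complement at 2 places, 84 and 15 bases before the start, and the Itgax window holds neither. The shorter GGAA within these letters stands in both windows. The Itgax window holds TGANTCA, the letters of an AP-1 element, 56 bases before the start, which the Itgam window does not. Among 32851 RefSeq windows of the same length, 23.3% hold GAGGAA and 6.75% hold TGANTCA on either strand, so neither is rare. RefSeq windows were matched for 7 of the 10 genes. None was matched for Itgal and Itgb2, which were higher in LPS, or for Itga6, which was lower. Of the 7 windows, those of Itga5, Itgam, Itgav and Itgb1 hold GAGGAA on either strand, those of Itga4, Itgax and Itgb5 do not, and none but that of Itgax holds TGANTCA. Of the 4 genes whose window holds GAGGAA, Itga5, Itgam and Itgb1 were higher and Itgav was lower in LPS, and the 3 whose window lacks it were lower. The call of Itgb1 did not hold in most alternative fits, as given below. The windows were also scanned for other motifs. The letters of an SP1 site stand in those of Itga5, Itgam and Itgb1, which were higher, and Itga4 and Itgb5, which were lower. Of the RefSeq windows, 32.7% hold these letters. The remaining motifs scanned, a kB site among them, had no match in the 7 windows. With 7 windows these are descriptions only. A match of letters shows no binding, and a window without one says nothing of the factor.

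Library totals ranged from 20071921 to 30604447 counts. Values by library are CPM, counts scaled to the size of the library, after TMM normalization, which sets each library's effective size from the bulk of its genes. The TMM factors were 1.21 to 1.32 in vehicle and 0.70 to 0.83 in LPS, and the median log2 fold change (LPS over vehicle) of the 13847 genes tested was -0.11. With library totals alone that median moved by -0.68, to -0.79. The calls over all genes then went from 4191 higher and 4686 lower to 1988 higher and 8457 lower. Directions close to 0 therefore depend on the scaling, and only Itgb1 among the 10 genes is close enough to turn.

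All 7 microglial marker genes (Cx3cr1, P2ry12, Aif1, Tyrobp, Fcrls, Trem2 and C1qa) were read in both groups, at a summed level of 4737 to 6599 CPM in vehicle and 909 to 1219 CPM in LPS, with 6 of the 7 lower. Bulk RNA cannot tell fewer cells of a type from less RNA per cell. Other leukocytes also use beta2 integrins, so their markers are given. Of 8 T and NK cell markers, 5 (Cd3e, Cd3d, Cd3g, Ncr1 and Trac) had no count in any library, and the list summed to 0.875 to 1.39 CPM in vehicle and 0.926 to 1.68 CPM in LPS. The 8 neutrophil markers summed to 2.01 to 14.6 CPM in vehicle and 713 to 1757 CPM in LPS, carried by S100a8 and Mmp8, while Ly6g, Ngp, Ltf, Cxcr2 and Retnlg had at most 3 counts in any library. Dendritic cell markers summed to 3.92 to 16.0 and 5.63 to 18.4 CPM, platelet markers to 1.81 to 3.33 and 3.895 to 43.0 CPM (mostly Gp6 in LPS), and those of border-associated macrophages to 1237 to 2121 and 705 to 1262 CPM, in vehicle and LPS. The dendritic cell sum mixes 1 higher gene and 2 lower genes, with Xcr1 at 0.315 to 0.692 and 4.98 to 17.7 CPM. The border-associated sum mixes 1 higher and 4 lower genes, with Mrc1 at 524 to 941 and 29.6 to 44.6 CPM. Astrocyte markers summed to 20.5 to 46.6 and 41.0 to 124 CPM (the rise carried by Gja1, with Gfap, Aqp4 and Aldh1l1 lower), those of the oligodendrocyte lineage to 92.9 to 146 and 17.6 to 23.5 CPM, endothelial markers to 10.8 to 22.9 and 51.3 to 109.6 CPM (mostly Pecam1 and Kdr in LPS, with Cldn5 and Emcn at 0), and fibroblast markers to 1.49 to 6.95 and 6.98 to 25.6 CPM (mostly Dcn in LPS). The part of these cells in the integrin values was not tested beyond these levels.

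All 10 integrin genes passed the filter on low counts, and each passed the test (edgeR's quasi-likelihood test, Benjamini-Hochberg adjusted p under 0.05 over all genes tested), 5 higher and 5 lower in LPS. Over all genes tested 64.1% were called, 30.3% higher and 33.8% lower, so that a call by itself sets an integrin gene little apart here. Itga5, Itgal, Itgam, Itgb2 and Itgb1 were higher, and Itgb5, Itga6, Itga4, Itgax and Itgav were lower. The median log2 fold change of the 10 genes was -0.24 beside -0.11 for all genes tested, midway between the 2 smallest changes, those of Itgb1 and Itgav. In 8 of the 10 genes the 4 vehicle and the 4 LPS libraries did not overlap, against 60.2% of all genes tested; Itgav and Itgax were the exceptions.

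**Figure D1:**
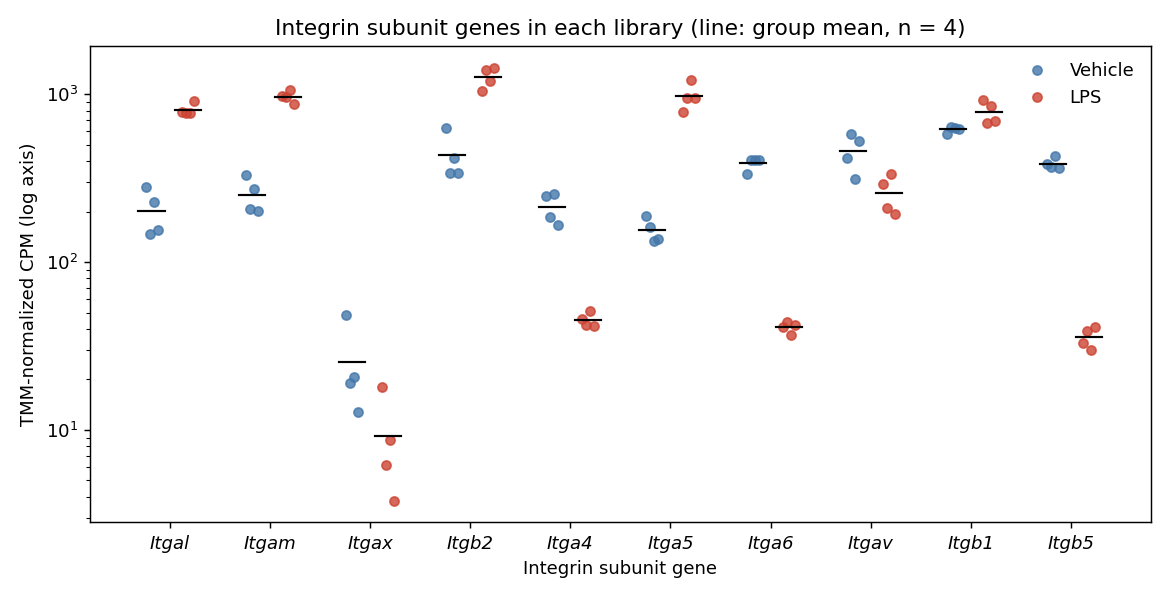
TMM-normalized CPM of the 10 integrin genes (log axis) in each library, vehicle in blue and LPS in red with replicates 1 to 4 from left to right in each cluster of points and the group mean as a line. Itga6, Itgb5 and Itga4 are lower in every LPS library and Itga5, Itgal, Itgam and Itgb2 are higher in every LPS library, while Itgax and Itgav overlap between the groups.

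The shared beta2 chain and 2 of its 3 alpha partners rose, and the third fell. Itgb2 stood at 632, 338, 418 and 340.5 CPM in vehicle replicates 1 to 4 and at 1047, 1391, 1194 and 1442 CPM in the LPS replicates. The groups did not overlap, and its level was 2.94-fold higher in LPS (log2 fold change 1.55, SE 0.22, edgeR adjusted p = 0.000205).

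Itgal, the alpha chain of LFA-1, stood at 279, 147, 227 and 155 CPM in the vehicle replicates and at 781, 776, 774 and 911 CPM in the LPS replicates. The LPS libraries lay close together apart from replicate 4, and the lowest of them was well above the highest vehicle library. The mean rose 4.01-fold, from 202 ± 62.7 to 810.5 ± 67.3 CPM (SD, n = 4; log2 fold change 2.01, SE 0.21, edgeR adjusted p = 3.16e-05).

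Itgam, the alpha chain of Mac-1, stood at 329.8, 206, 272 and 201 CPM in vehicle and at 970.1, 958.5, 1062 and 871 CPM in LPS. Again no library of one group reached the other. The rise was 3.83-fold (log2 fold change 1.94, SE 0.18, edgeR adjusted p = 1.33e-05), while 6 of the 7 microglial marker genes fell. In the annotation, 68.7% of the exonic bases of Itgam are also exonic in Gm49368, a same-strand locus that reaches toward Itgax. How reads in those shared exons were counted is not given in the sources used here. Gm49368 itself held 5 to 24 counts in vehicle and 48 to 99 in LPS, against 5658 to 9422 and 16094 to 22761 for Itgam, so the reads assigned to it are too few to alter the fold change.

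Itgax, the alpha chain of complement receptor 4, was the rarest of the 10 genes and went the other way. It stood at 48.4, 19.1, 20.6 and 12.8 CPM in vehicle and at 18.01, 6.21, 8.72 and 3.79 CPM in LPS. LPS replicate 1 was above vehicle replicate 4, so the groups overlapped. The log2 fold change was -1.46 (SE 0.52, edgeR adjusted p = 0.0311), and the call was lost when any of 5 libraries was left out; without vehicle replicate 1, the highest, it was -0.89 (adjusted p = 0.129). Libraries with the same replicate number moved together in this gene: each LPS library was lower than the vehicle library of its number, by 1.24 to 1.75 on the log2 scale. With the replicate block, a pairing taken from these same data, the log2 fold change was -1.50 (SE 0.14, edgeR adjusted p = 5.57e-05).

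**Figure D2:**
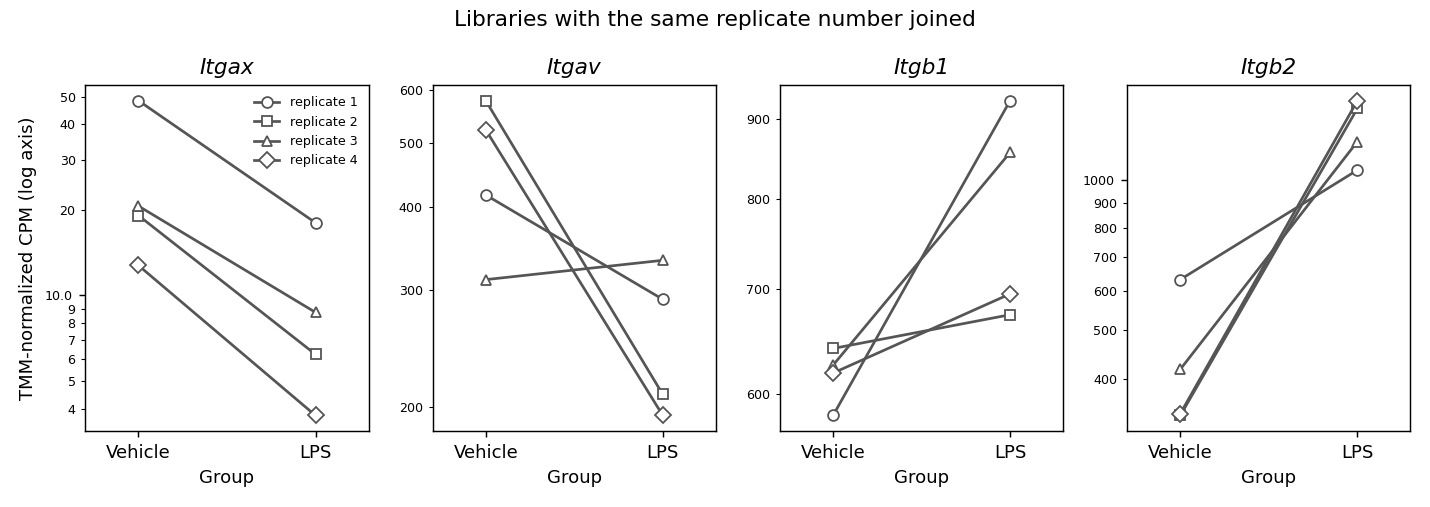
TMM-normalized CPM (log axes of different range) of Itgax, Itgav, Itgb1 and Itgb2 in the 4 vehicle and 4 LPS libraries, with a line and symbol for each replicate number. The 4 lines of Itgax run down almost in parallel from levels that differ between the replicates, 3 of the 4 lines of Itgav run down and that of replicate 3 runs slightly up, and the lines of Itgb1 and Itgb2 all run up by unequal amounts.

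Among the genes of the beta1 integrins, the alpha chains changed strongly and in both directions while Itgb1 itself changed little. Itga5, the alpha chain of the classical fibronectin receptor, had the largest rise of the 10 genes. It stood at 188, 162, 134 and 137 CPM in vehicle and at 788, 951, 1215 and 952 CPM in LPS. The vehicle libraries lay close together, every LPS library was far above them, and the mean was 6.29-fold higher (log2 fold change 2.65, SE 0.18, edgeR adjusted p = 1.85e-06).

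Itga4, whose product binds VCAM-1 and fibronectin, stood at 248, 187, 256 and 167 CPM in vehicle and at 45.5, 42.4, 50.7 and 41.8 CPM in LPS. Vehicle replicates 1 and 3 were above 2 and 4, and the LPS libraries were nearly level. Its mean was 4.75-fold lower in LPS (log2 fold change -2.25, SE 0.16, edgeR adjusted p = 2.61e-06).

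Itga6, the laminin-binding alpha chain, stood at 333, 405, 406.5 and 405.9 CPM in vehicle and at 41.2, 44.2, 37.0 and 42.0 CPM in LPS. Vehicle replicates 2, 3 and 4 were almost equal, and every LPS library was far below all of them. The mean was 9.43-fold lower (log2 fold change -3.24, SE 0.12, edgeR adjusted p = 9.7e-08).

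Itgb1 stood at 581, 641.5, 626 and 619 CPM in vehicle and at 924, 674, 856 and 695 CPM in LPS. The groups did not overlap, but LPS replicates 2 and 4 were only just above the vehicle range. The log2 fold change was 0.35 (SE 0.14, edgeR adjusted p = 0.0435) and did not hold as a call: with the replicate block it was 0.34 (adjusted p = 0.0653), with upper-quartile scaling 0.20 (adjusted p = 0.209), and with library totals it turned to -0.33 (adjusted p = 0.0417). Relative to the median gene Itgb1 was 0.46 higher on the log2 scale under each of these 3 scalings and with DESeq2. A change of scaling shifts all genes nearly alike, so this agreement is built in and adds no support for the call. The same difference from the median gene was 2.75 to 2.77 for Itga5 and -3.13 to -3.12 for Itga6.

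The alpha v gene and its beta5 partner both fell, by very different amounts. Itgav stood at 417, 579, 311 and 523 CPM in vehicle and at 290.3, 209, 332.5 and 194 CPM in LPS. LPS replicate 3 was above vehicle replicate 3, the only pair of equal number that went up (0.10 on the log2 scale), so the groups overlapped. The log2 fold change was -0.84 (SE 0.23, edgeR adjusted p = 0.0107), and it stayed below 0 and past the threshold in all 14 alternative fits (-1.54 to -0.67).

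Itgb5, often counted among the genes of resting microglia, fell most of the 10 genes. It stood at 386, 366, 427 and 365 CPM in vehicle and at 33.1, 39.1, 29.9 and 41.1 CPM in LPS. The mean was 10.8-fold lower (log2 fold change -3.43, SE 0.14, edgeR adjusted p = 1.44e-07), and the groups were far apart. A processed pseudogene on chromosome 3, Gm38317, shares 7.25% of the 50-base windows of the Itgb5 transcripts and moved with it, from 416 to 642 counts in vehicle to 25 to 39 in LPS (log2 fold change -3.30, SE 0.22, edgeR adjusted p = 1.87e-06). Reads lying wholly in such windows match both genes, and only uniquely aligned reads were counted. How the counts of Gm38317 arose was not tested. The counts of Itgb5, 10279 to 13477 in vehicle and 553 to 760 in LPS, were far larger.

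**Figure D3:**
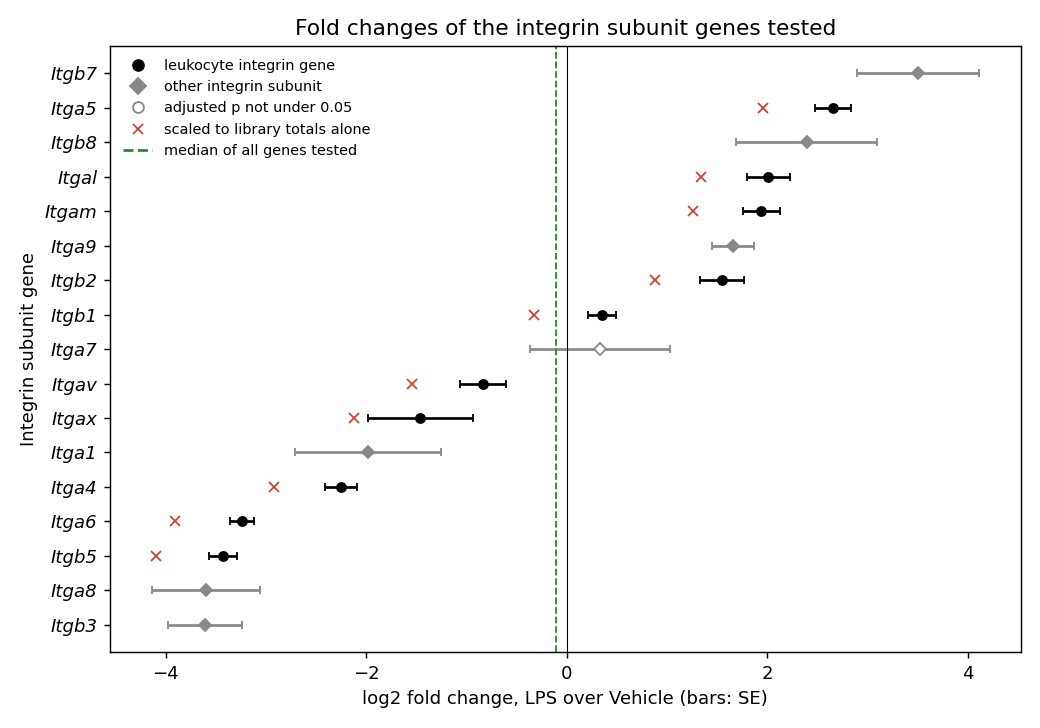
Log2 fold change (LPS over vehicle) with its SE for the 17 integrin subunit genes that were tested: circles for the 10 leukocyte integrin genes, diamonds for the other 7, an open symbol where the adjusted p was not under 0.05 (Itga7) and a cross for the 10 genes scaled to library totals alone. The crosses lie about 0.7 to the left of the circles, and Itgb1 is the one circle whose cross lies on the other side of 0.

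Levels were set side by side between genes only per length, as counts per kilobase of exon scaled to the same total over all genes in each library (TPM-like units). They carry no TMM factor, so they are compared within a library or a group and not between the groups. In vehicle Itgb1 (658 ± 61.5; SD, n = 4) and Itgb2 (609 ± 168) came first and their ranges overlapped, followed by Itgb5 (471 ± 16.1). The alpha chains Itgam (216 ± 40.5), Itgav (187 ± 59.0), Itga6 (187 ± 25.6), Itga5 (137 ± 21.4) and Itgal (132 ± 33.8) formed a row in which each overlapped its neighbour, and Itga4 (66.0 ± 9.40) and Itgax (22.4 ± 13.1) came last without overlap.

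In LPS the order was different. Itgb2 led alone (1064 ± 191), Itga5 (501 ± 58.1), Itgb1 (491 ± 73.6) and Itgam (489 ± 22.7) overlapped as a group, and Itgal followed (316 ± 40.9). Itgav (60.3 ± 12.4), Itgb5 (25.9 ± 5.17), Itga6 (11.7 ± 1.59), Itga4 (8.20 ± 0.302) and Itgax (4.89 ± 3.45) were all far below, and of these Itga4 and Itgax overlapped. The place of Itgam and Itga6 depends on the length used. If no read in the exons shared with Gm49368 had been counted, the level of Itgam over its remaining 1574 of 5024 exonic bases would be 689.7 ± 129 in vehicle and 1560 ± 72.5 in LPS, the first in both groups. With the length of the longest transcript, Itga6 was at 314 in vehicle in place of 187.

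Ratios of each alpha gene to its beta gene within a library are free of the scaling between libraries. All ratios but that of Itgam to Itgb2 did not overlap between the groups and had the smallest p that 4 against 4 libraries allow (two-sided exact permutation test, p = 0.0286, 0.0327 adjusted over the 8 ratios). The ratio of Itga5 to Itgb1 was 0.268, 0.209, 0.177 and 0.183 in vehicle and 0.705, 1.17, 1.17 and 1.13 in LPS, a difference of 2.31 in the mean log2 ratio. The ratio of Itga6 to Itgb1 went from 0.259 to 0.297 in vehicle to 0.0195 to 0.0296 in LPS (-3.58), and that of Itga4 to Itgb1 from 0.0786 to 0.125 to 0.0144 to 0.0184 (-2.57). In LPS the per-length level of Itga5 was thus close to that of Itgb1, while those of Itga4 and Itga6 were a small part of it.

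The ratios of Itgav to Itgb1 and to Itgb5 moved in opposite directions. The ratio to Itgb1 was 0.189 to 0.343 in vehicle and 0.106 to 0.148 in LPS (log2 difference -1.17), so Itgav stayed below Itgb1 in every library. The ratio of Itgav to Itgb5 was 0.240 to 0.523 in vehicle and 1.56 to 3.68 in LPS (log2 difference 2.61). In every vehicle library Itgb5 was above Itgav, and in every LPS library it was below.

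Within the beta2 integrins the ratio to Itgb2 rose for Itgal from 0.202 to 0.252 in vehicle to 0.259 to 0.347 in LPS (log2 difference 0.46). For Itgam it was 0.317 to 0.396 in vehicle and 0.367 to 0.563 in LPS; the groups overlapped and the log2 difference of 0.37 missed the threshold (exact permutation p = 0.0857, also after adjustment), with 4 of 4 replicate numbers higher, by 0.03 to 0.83. For Itgax the ratio went from 0.0238 to 0.0486 in vehicle to 0.00167 to 0.0109 in LPS (log2 difference -3.10). The ratios of Itgam rest on all its exonic bases. If reads in exons shared with Gm49368 were not counted, each would be higher, with the log2 difference unchanged.

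**Figure D4:**
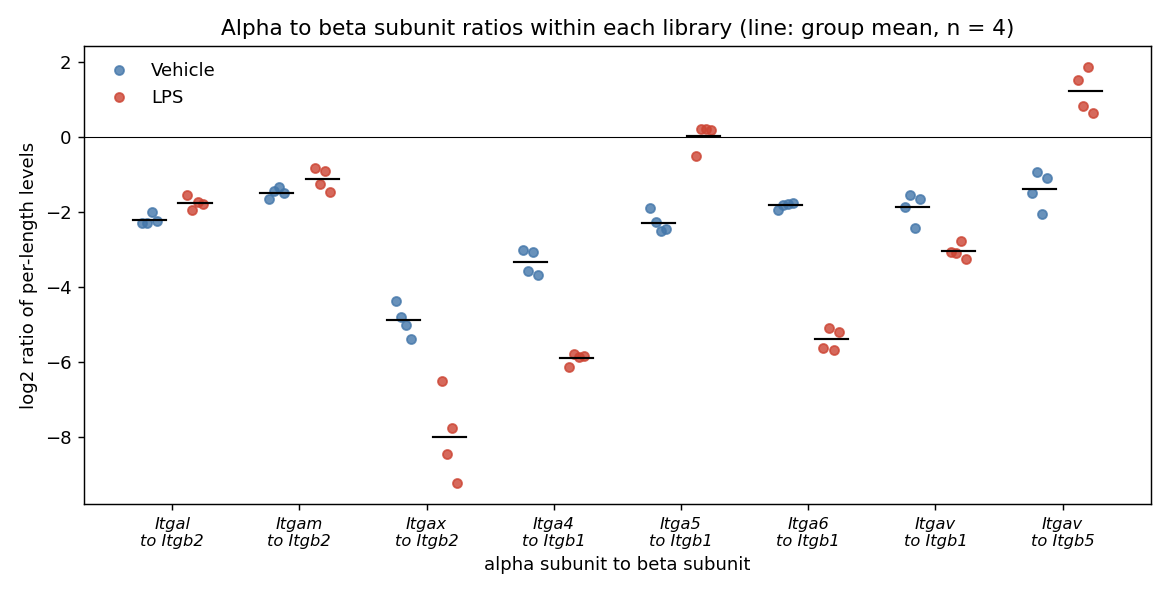
Log2 ratio of the per-length level of each alpha gene to that of its beta gene in every library, vehicle in blue and LPS in red with replicates 1 to 4 from left to right and the group mean as a line. Itga5 to Itgb1 rises to about 0, Itgav to Itgb5 crosses 0, Itgax to Itgb2, Itga4 to Itgb1 and Itga6 to Itgb1 fall, and the points of Itgam to Itgb2 overlap.

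Of the summed per-length level of the 4 alpha genes that pair with beta2, Itgam made up 58.8% ± 2.44 in vehicle and 60.5% ± 3.59 in LPS (SD, n = 4; exact permutation p = 0.371). Itgal made up 35.5% ± 1.63 and 38.9% ± 3.78 (p = 0.0857 by the exact permutation test). The share of Itgax was 8.52%, 5.90%, 4.61% and 4.01% in vehicle and 1.19%, 0.417%, 0.549% and 0.252% in LPS, without overlap (exact permutation p = 0.0286, the smallest possible, and 0.0858 adjusted over the 3 shares). Itgad, which follows Itgax on the chromosome after 3718 bases, had no count in any library. If reads in the exons shared with Gm49368 had not been counted, the difference in the share of Itgax would be -2.27 in place of -5.16 percentage points. The share of Itgam would then be larger and that of Itgal smaller in both groups.

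The libraries of a group differed among themselves, in an order only partly shared between the groups. In vehicle, replicates 1 and 3 were both above replicates 2 and 4 in 6 of the 10 genes (Itga4, Itgal, Itgam, Itgax, Itgb2 and Itgb5) and below them in Itgav. In LPS they were above in Itga4, Itgam, Itgav, Itgax and Itgb1 and below in Itga6, Itgb2 and Itgb5. Only Itga4, Itgam and Itgax were thus above in both groups, while Itgb2, Itgb5 and Itgav changed sides. The labels do not give this split, and its share over all genes tested was not computed. Vehicle replicate 1 held the highest vehicle level in 5 genes (Itga5 and the 4 beta2 genes Itgal, Itgam, Itgax and Itgb2).

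Of the 17 other integrin subunit genes, 7 passed the filter. Of these 7, Itga9, Itgb7 and Itgb8 rose, Itga1, Itga8 and Itgb3 fell, and Itga7 did not pass the test (log2 fold change 0.33, SE 0.70, edgeR adjusted p = 0.695). The called share was 85.7% (42.9% higher and 42.9% lower), beside 64.1% of all genes tested (30.3% and 33.8%). The median log2 fold change of the 7 genes, that of Itga7, was 0.33, beside -0.11 for all genes tested. Itga9, an alpha chain that joins beta1 and binds VCAM-1 and tenascin, had the highest per-length level of the 7 genes in both groups (means 32.8 in vehicle and 60.8 in LPS). It stood at 35.8, 70.2, 57.0 and 67.0 CPM in vehicle and 184, 200.4, 147 and 196 CPM in LPS (log2 fold change 1.66, SE 0.21, edgeR adjusted p = 8.23e-05). Itgb3, the beta chain of the other vitronectin receptor of alpha v, was at 6.06 to 13.1 CPM in vehicle and 0.327 to 1.08 CPM in LPS (log2 fold change -3.61, SE 0.37, edgeR adjusted p = 2.34e-05), and so fell together with Itgav and Itgb5.

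Itgb8, whose alpha v partner receptor releases active TGF-beta, was at 3.29, 5.43, 0.793 and 6.25 CPM in vehicle and at 37.6, 5.56, 30.3 and 9.03 CPM in LPS. LPS replicates 1 and 3 were high and replicates 2 and 4 were near the vehicle range, which overlapped (log2 fold change 2.39, SE 0.70, edgeR adjusted p = 0.0139; 2.20 and 0.0502 with the replicate block). Itgb7, a second beta chain that can join alpha 4, went from 0.0346 to 0.315 CPM to 0.811 to 3.41 CPM (log2 fold change 3.50, SE 0.61, edgeR adjusted p = 0.000725). Itga8 held 33 to 118 counts per library in vehicle and 2 to 4 in LPS (log2 fold change -3.60, SE 0.54, edgeR adjusted p = 0.000283). Itga1, a collagen-binding alpha chain, held 7 to 77 counts in vehicle and 4 to 15 in LPS; its groups overlapped and its call (log2 fold change -1.98, SE 0.73, edgeR adjusted p = 0.0379) was lost when any of 6 libraries was left out. The remaining 10 genes, among them the platelet alpha chain Itga2b and the mucosal alpha chain Itgae, had at most 16 counts in any library, and Itgad and Itgb2l had none.

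Genes that activate integrins or link them to actin moved in both directions. Of 39 genes, 36 passed the filter, and 19 rose, 11 fell and 6 did not pass the test, with a median log2 fold change of 0.60 over the 36. That is 52.8% higher and 30.6% lower, beside 30.3% and 33.8% of all genes tested. With library totals alone the list had 13 higher and 16 lower, beside 1988 higher and 8457 lower of all 13847 genes tested. The kinases Syk and Lyn, which signal below engaged integrins in myeloid cells, were among the leading rises. Syk went from 176 to 342 CPM in vehicle to 1095 to 1352 CPM in LPS (log2 fold change 2.40, SE 0.22, edgeR adjusted p = 1.28e-05), with its highest vehicle level in replicate 1 as for the beta2 genes. Lyn rose by 2.36 (SE 0.15) and Bcar1, an adaptor of focal adhesions at 2.63 CPM in vehicle and 11.9 CPM in LPS, by 2.18 (SE 0.40) on the log2 scale, with edgeR adjusted p of 1.48e-06 and 0.000932.

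The talin and kindlin genes of leukocytes were looked up for their role, outside the rule on named genes. Tln1, the talin of blood cells, went from 749 ± 57.7 to 1516 ± 153 CPM (SD, n = 4; log2 fold change 1.02, SE 0.13, edgeR adjusted p = 0.000103), and Fermt3, the leukocyte kindlin, from 298 ± 47.0 to 799 ± 245 CPM (log2 fold change 1.42, SE 0.24, edgeR adjusted p = 0.000659). The second talin gene, Tln2, was the largest fall of the list, from 40.4 to 77.4 CPM in vehicle to 0.606 to 2.04 CPM in LPS (log2 fold change -5.34, SE 0.36, edgeR adjusted p = 1.92e-06). Cytip, a partner of the cytohesins that act on LFA-1, went from 8.56 to 21.0 CPM to 0.299 to 2.99 CPM (log2 fold change -3.60, SE 0.54, edgeR adjusted p = 0.00029). Rasgrp2, the exchange factor that loads Rap1, had 29 to 49 counts per library in vehicle and at most 2 in LPS, at least 8.04-fold lower against a floor of 3 counts per library (edgeR adjusted p = 0.000119).

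Of 29 genes of integrin ligands, 17 passed the filter, of which 5 rose, 3 fell and 9 did not pass the test, with a median log2 fold change of -0.05. The called share was 47.1% (29.4% higher and 17.6% lower), beside 64.1% of all genes tested. Thbs1, the matrix protein thrombospondin-1, was at 189, 38.9, 71.1 and 29.2 CPM in vehicle and 2588, 1803, 5065 and 1430 CPM in LPS (log2 fold change 5.05, SE 0.71, edgeR adjusted p = 0.000174). F11r (JAM-A, which LFA-1 binds) rose from 14.7 to 16.4 CPM to 112 to 183 CPM (log2 fold change 3.17, SE 0.16, edgeR adjusted p = 4.01e-07). C3, whose cleaved product iC3b is the ligand of Mac-1 and complement receptor 4, rose from 238 to 891 CPM to 2222 to 2541 CPM (log2 fold change 2.16, SE 0.40, edgeR adjusted p = 0.00109).

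Fn1 (fibronectin), the ligand of the Itga5 and Itga4 receptors, was at 1127, 317, 324 and 197 CPM in vehicle and at 66.3, 10.1, 38.2 and 5.95 CPM in LPS. Vehicle replicate 1 stood far above the rest, and all LPS libraries were below all vehicle libraries (log2 fold change -4.03, SE 0.85, edgeR adjusted p = 0.00222). The fibronectin gene thus fell in the same libraries in which Itga5 rose and Itga4 fell. Mfge8, which bridges alpha v integrins to apoptotic cells, went from 31.6 to 78.6 CPM to 8.44 to 17.0 CPM (log2 fold change -2.13, SE 0.33, edgeR adjusted p = 0.000329). Icam2, a ligand of LFA-1, went from 2.56 to 4.84 CPM to 1.45 to 2.15 CPM (log2 fold change -1.14, SE 0.26, edgeR adjusted p = 0.00379). Outside the rule on named genes, Icam1 and Vcam1 were looked up as well. Icam1 was at 64.0 to 104.6 CPM in vehicle and 81.5 to 132 CPM in LPS and did not pass the test (log2 fold change 0.32, SE 0.22, edgeR adjusted p = 0.227). Vcam1 rose from 1.21 to 2.08 CPM to 5.27 to 9.31 CPM (log2 fold change 2.11, SE 0.24, edgeR adjusted p = 5.06e-05).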

How the data were processed

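Strand-aware mRNA libraries per the labels (the study's methods name another kit and sequencer) were read as single-end 50-base reads. The authors aligned them to GRCm38 with GSNAP in HTSeqGenie and deposited raw counts of uniquely aligned reads per Ensembl gene, without normalization. The annotation release and the use of strand in counting are not given in the sources used here. All 8 columns were matched to samples. GENCODE vM21 gave symbols for 52489 of 52636 identifiers, positions and exon lengths, and RefSeq (GRCm38.p6) gave the promoter windows.

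Counts were tested with edgeR 4.0.16 in R 4.3.3 (TMM, filterByExpr with a minimum count of 10 and total of 15, quasi-likelihood test, LPS against Vehicle, Benjamini-Hochberg over all genes tested, threshold 0.05), after a check on simulated data. Ratios and shares were tested with a two-sided exact permutation test over all 70 ways to label 4 of the libraries LPS (scipy 1.17.1, Python 3.11.15). Alternatives were DESeq2 1.42.0, other scalings and filters, the replicate block and leaving out each library. Same-numbered vehicle and LPS libraries deviated together from their group means (r = 0.365, 0.179, 0.177 and 0.110 over 8354 genes). Libraries of different number gave r of -0.199 to 0.142. Vehicle replicate 4 was closer to LPS replicate 2 (0.123) than to LPS replicate 4 (0.110). From the data only, the numbers were treated as pairs in the replicate block and in differences by number, and the main fit left them out. No libraries of a group agreed within sampling noise (chi-square per degree of freedom of 7.05 or more). Replicates 2 and 4 were the closest in both groups, at 11.6 in vehicle (other pairs 37.5 to 70.9) and 7.05 in LPS (other pairs 61.4 to 159). Whether the 4 libraries of a group are equally independent, as the tests assume, was not tested. The members, lists and tests were chosen with earlier results of these data known. Beyond the 10 genes, every other tested integrin subunit and the 3 largest rises and falls past the threshold of the other lists are named; 2 listed genes are not reported here. PCR reads without molecular identifiers are not independent molecules, so floors cover counting error only.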

Additional observations from a re-analysis of the deposited data

Results flagged for a closer look

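In 42 groups of 4 libraries (the CPM of the 10 genes, the 8 ratios and the 3 shares in each treatment), 3 held a library whose gap to its nearest neighbour exceeded Dixon's 95% critical value, where chance flags about 1 in 20. Itga6 in vehicle replicate 1 was at 333 CPM, with the other 3 vehicle libraries at 405 to 406 CPM. Itgal in LPS replicate 4 was at 911 CPM, with the other LPS libraries at 774 to 781 CPM. The log2 ratio of Itga5 to Itgb1 in LPS replicate 1 was -0.50, with the other LPS libraries at 0.18 to 0.23. Each of these libraries stayed on its own group's side of the other group.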

How the results depend on the processing

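Of 140 alternative log2 fold changes of the 10 genes, 125 kept their direction and side of the threshold, and the 14 on the other side of it and the 1 that turned belong to Itgax and Itgb1. The count of higher genes was 4 to 5 and that of lower genes 4 to 6 under all alternatives. Itgb1 turned with library totals (-0.33) and kept its call in 4 of 14 alternatives; Itga7 turned with library totals (-0.34) and without LPS replicate 2 (-0.50 to 0.85 when single libraries were left out), never past the threshold. Requiring at least 10 counts in every library left 0 of 3 lower calls among the other integrin subunits (those genes were then not tested; DESeq2 gave 4, as did the fit with no filter) and 7 of 11 among the activation and linkage genes. Falling ligand genes numbered 3, but 6 with library totals, 5 with the replicate block and 3 to 5 when single libraries were left out, 5 of them without LPS replicate 1. Leaving out single libraries gave 2 to 4 lower calls among the other integrin subunits. Ratios and shares without 1 library are values with no test, since 3 against 4 libraries cannot reach the threshold, and all kept their direction. The length of Itgam outside Gm49368, an alternative chosen after seeing the data, gave a share difference of -2.27 for Itgax. The replicate block changed no call beside those of Itgb1, Itgb8 and the ligand genes among the results named. The causes were not tested. Itgad, Itgb2l and genes at a few counts are below what this depth can compare.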
